A study of Homo sapiens with 42 samples.

Results

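The cytosolic ribosomal protein genes encode the proteins that fold with the ribosomal RNAs into the large and small subunits of the ribosome outside the mitochondria. They were taken by symbol: RPSA, RPLP0, RPLP1, RPLP2, and every RPL or RPS symbol followed by a number and at most A, X, L or AL. Pseudogenes, the Y-linked small-subunit gene and mitochondrial ribosomal proteins were not included. The rule found 82 genes among the 58869 genes of the count table, of which 50 belonged to the large subunit and 32 to the small subunit. No measured value entered the rule. RPL10L had no count in any library, and RPL3L had a median of 6.5 counts, so 80 members could be tested in OCI-AML3 and 81 in NOMO1.

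Each ribosome carries about the same number of copies of nearly every ribosomal protein, and proteins left without a partner are degraded. The mRNAs are very abundant, and most start with a cytosine followed by a run of pyrimidines, the 5′ terminal oligopyrimidine (TOP) tract, through which mTORC1 and the RNA-binding protein LARP1 control their translation. Transcription of the genes is raised by MYC, and in blood cells their dosage matters clinically: germline loss of single members causes Diamond-Blackfan anaemia, a failure of red cell production, and RPS14 lies in the segment lost in the 5q- syndrome. Free RPL5 and RPL11, bound to 5S ribosomal RNA, inhibit MDM2 and so stabilise p53.

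The series measured polyadenylated RNA in 2 human acute myeloid leukaemia cell lines. OCI-AML3 carries the mutation of nucleophosmin labelled NPM1c+, and NOMO1 carries a rearrangement of KMT2A labelled KMT2A-r. Each line was given DMSO, the menin inhibitor VTP-50469 at 100 nM (titles spell the number differently), the MEK inhibitor selumetinib at 100 nM, or both drugs together. Groups are named DMSO, VTP, SEL and Combo, followed by D3 or D6 for 3 or 6 days. Selumetinib has 1 group per line without a settled time: the treatment protocol gives 1 day, whereas the titles give day 1 for replicate 1 and day 3 for replicates 2 and 3. There were 3 libraries in each of 14 groups, 42 in all. The labels do not say that replicates came from separate cultures, so p-values measure the spread between these libraries, which may be technical. Each genotype is represented by 1 cell line, so genotype and line cannot be told apart. OCI-AML3 groups were compared with DMSO of the same day (selumetinib with DMSO_D3), and NOMO1 groups with NOMO1 DMSO_D6. Comparisons that use the same DMSO or VTP group share those libraries and are not independent of one another.

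The smallest and largest OCI-AML3 libraries had 15561248 and 24262960 counts, and those of NOMO1 had 15264862 and 29168628. All 8 myeloid markers listed had counts in all 14 groups, though MPO had group means of 0.606 to 2.49 CPM in OCI-AML3 against 2786 to 13241 in NOMO1. Markers of other cell types were partly present. Group means of EPOR were 15.7 to 24.8 CPM (OCI-AML3) and 18.2 to 28.5 (NOMO1), and NOMO1 also had GATA1 (3.99 to 21.9), CD3D (4.56 to 37.7), KRT8 (24.5 to 285) and COL1A1 (24.4 to 241), of which GATA1 and CD3D reached at most 0.0721 CPM in OCI-AML3, and KRT8 and COL1A1 6.72 and 3.87. HBA1 and PF4, markers of red cells and platelets, were at 0 in all groups; the part of such genes in the results was not tested. In each line 1 VTP_D3 library stood apart, replicate 2 in OCI-AML3 (chi-square per gene 32.1 and 30.9 against the other replicates, which differed by 4.34) and replicate 1 in NOMO1 (67.6 and 73.0, against 6.42). NOMO1 DMSO_D3 also stood apart from all other NOMO1 groups in its share of mitochondrially encoded RNA, 17.8% of counts. The OCI-AML3 Combo_D6 libraries had 16761, 16742 and 17438 genes with a count, against 20208, 20280 and 20482 in DMSO_D6. Their replicate 2 differed from the others by 21.4 and 20.9 in chi-square per gene, and the others from each other by 13.3. In bulk RNA, fewer cells of a type and less RNA per cell cannot be told apart, and a level here is relative to all other RNA of the library. Another annotated gene, on either strand, covers part of the exonic sequence of 37 members, and reads from those stretches cannot be told apart by gene in unstranded libraries. The covered share was highest for RPL10, at 52.7% of exonic bases (with DNASE1L1), so the values of RPL10 below carry that uncertainty. RPS10, RPL17 and RPL36A had low counts (medians of 49, 381 and 90.5 over the libraries). The read-through genes RPS10-NUDT3, RPL17-C18orf32 and RPL36A-HNRNPH2 themselves had medians of 0, 1 and 0 counts. Whether overlap with them, or near-identical copies, lowered the counts of these members was not tested. The values of RPS10, RPL17 and RPL36A are uncertain as well.

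The starts of the transcripts are shown because the TOP tract is the sequence feature that most of these mRNAs share. A tract was counted where the first transcribed base was C and at least 4 further C or T bases followed, on the gene's own strand, at any start listed by RefSeq (GRCh38.p14). Of the 65 members in the RefSeq promoter table, 46 (70.8%) had such a start, against 1404 of all 27305 genes in the table (5.14%). Each sequence below gives the 12 bases before the annotated start and 24 from it, 5′ to 3′ on the gene's strand, with the tract in capitals. The first 5 have a tract. The last 4 have none at the start printed; they are shown because their genes carry results given by name. RPL11 and RPS19 have further annotated starts without a tract.
RPSA, chr3:39406708-39406743, plus strand: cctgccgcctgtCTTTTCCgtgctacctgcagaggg
RPL11, chr1:23691794-23691829, plus strand: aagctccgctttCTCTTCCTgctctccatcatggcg
RPS19, chr19:41860243-41860278, plus strand: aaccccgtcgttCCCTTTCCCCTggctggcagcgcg
RPS27, chr1:153990750-153990785, plus strand: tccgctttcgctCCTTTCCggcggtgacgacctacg
RPL26, chr17:8383170-8383205, minus strand: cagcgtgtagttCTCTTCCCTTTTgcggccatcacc
RPS26, chr12:56041906-56041941, plus strand: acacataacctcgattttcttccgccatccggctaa
RPS27L, chr15:63157454-63157489, minus strand: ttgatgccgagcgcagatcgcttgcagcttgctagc
RPL17, chr18:49492442-49492477, minus strand: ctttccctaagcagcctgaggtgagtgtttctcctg
RPL9, chr4:39458899-39458934, minus strand: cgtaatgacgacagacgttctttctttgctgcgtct

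Per kilobase of annotated transcript (GENCODE 29), the levels of the members covered a wide range. Over all 42 libraries the median member had a CPM (count relative to the library's total) of 1053 per kilobase. RPS18 was highest at 5153 CPM per kilobase, followed by RPS2 at 3569 and RPL8 at 3335. Lowest among those with counts were RPL3L, the striated-muscle form of RPL3, at 0.137 CPM per kilobase, and RPS10 at 3.57. RPL10L, the testis form of RPL10, was at 0.

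In the day 6 DMSO controls, NOMO1 had higher levels than OCI-AML3 for 49 of 81 members and lower levels for 10, at an edgeR adjusted p under 0.05 with TMM scaling, with a median log2 difference of 0.33; with scaling by library totals the split was 22 higher and 20 lower and the median 0.06. Of all 18707 genes tested, 32.7% were higher and 28.6% lower, and library totals moved the median of all genes by -0.25. The largest difference was in RPL39L (chr3:187120948-187180908, GRCh38), a paralog of RPL39 best known from testis: its CPM, scaled across both lines, was 7.88, 11.6 and 13.1 in the 3 OCI-AML3 libraries and 52.9, 52.8 and 51.2 in the 3 NOMO1 libraries. The groups did not overlap, and the log2 difference was 2.27 ± 0.16 (SE), edgeR adjusted p = 2.3e-16. RPL11 (chr1:23691742-23696835), which carries 5S rRNA into the large subunit together with RPL5, was at 566, 627 and 634 CPM in OCI-AML3 and 1456, 1517 and 1498 in NOMO1, again without overlap. Its log2 difference was 1.29 ± 0.08 (SE) (adjusted p = 6.1e-18), and that of its partner RPL5 was 0.29. RPS27, a zinc-finger protein of the small subunit, went the other way, with 1271, 1877 and 1757 CPM in OCI-AML3 and 745, 721 and 811 in NOMO1 (log2 difference -1.11 ± 0.17 (SE), adjusted p = 1.4e-06). Its paralog RPS27L, a p53-inducible gene, was also lower in NOMO1, with a log2 difference of -0.99. RPS6, the small-subunit protein phosphorylated by S6 kinase, had a log2 difference of -0.77, and RPS4X, the X-linked form of RPS4, one of 0.92. Between the day 3 controls the difference was 0.10 for RPS27L and 0.32 for RPS6, opposite in sign. The call of RPL5 ended with library totals, and without NOMO1 DMSO_D6 replicate 2 (adjusted p = 0.072).

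**Figure D1:**
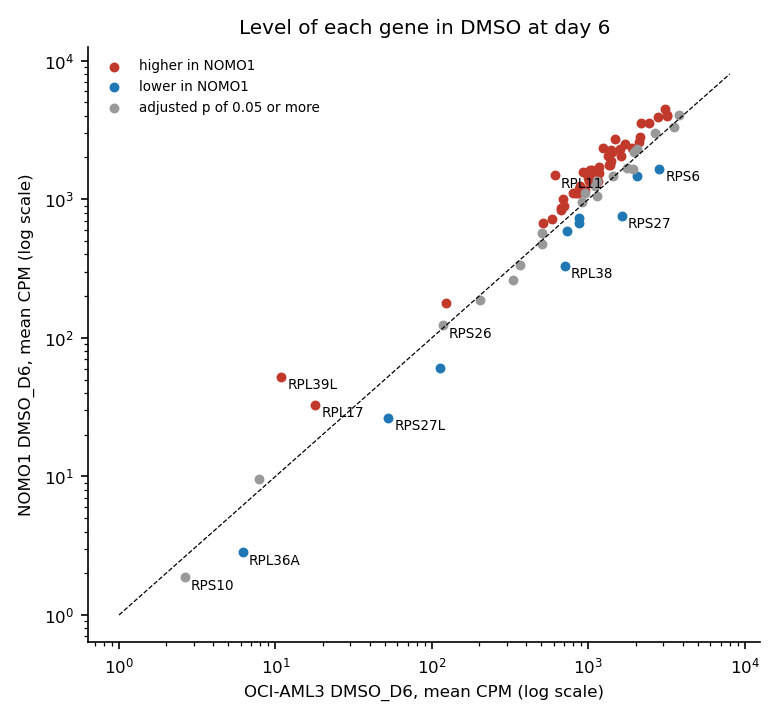
Mean CPM of each member in OCI-AML3 DMSO_D6 (horizontal, log scale) and NOMO1 DMSO_D6 (vertical, log scale), scaled by TMM across both lines, n = 3 libraries a group, with the line of equality. RPL39L and RPL11 lie above the line of equality and RPS27, RPS27L and RPS6 below it; RPL3L and RPL10L are not drawn.

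Added together, the members held between 8.33% and 15.2% of all counts of a library. In OCI-AML3 their share was 11.5, 11.3 and 11.2% in the DMSO_D3 libraries and 10.3, 11.4 and 11.3% in DMSO_D6. With VTP it was 10.2, 8.93 and 10.5% on day 3 and 8.78, 9.31 and 8.72% on day 6, all of these below the controls of their day. Selumetinib libraries were above DMSO_D3, at 12.1, 12.1 and 12.7%. The combination gave a mean of 9.89 ± 0.766% (SD, n = 3) on day 3 and 8.74 ± 0.431% on day 6. In NOMO1 the highest share was that of DMSO_D3, 14.9, 15.2 and 15.2%, and DMSO_D6 had 10.7, 11.5 and 11.5%. NOMO1 VTP_D6 libraries were at 8.67, 9.40 and 8.33% and Combo_D6 libraries at 10.1, 9.74 and 8.80%, each group below DMSO_D6 without overlap. Of 17 comparisons of the share, 8 had groups that did not overlap; each of these had an exact 2-sided permutation p of 0.1, the smallest that 3 against 3 libraries can give, and 0.213 after Benjamini-Hochberg adjustment over the 17. Mitochondrially encoded RNA moved with several of these values: it made up 12.3% of counts in OCI-AML3 Combo_D6 against 3.24% in DMSO_D6, and as a share of the other counts the OCI-AML3 Combo_D6 members differed from DMSO_D6 by -1.40 percentage points, against -2.26 points for the share of all counts. Its part in the difference beyond that was not tested.

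**Figure D2:**
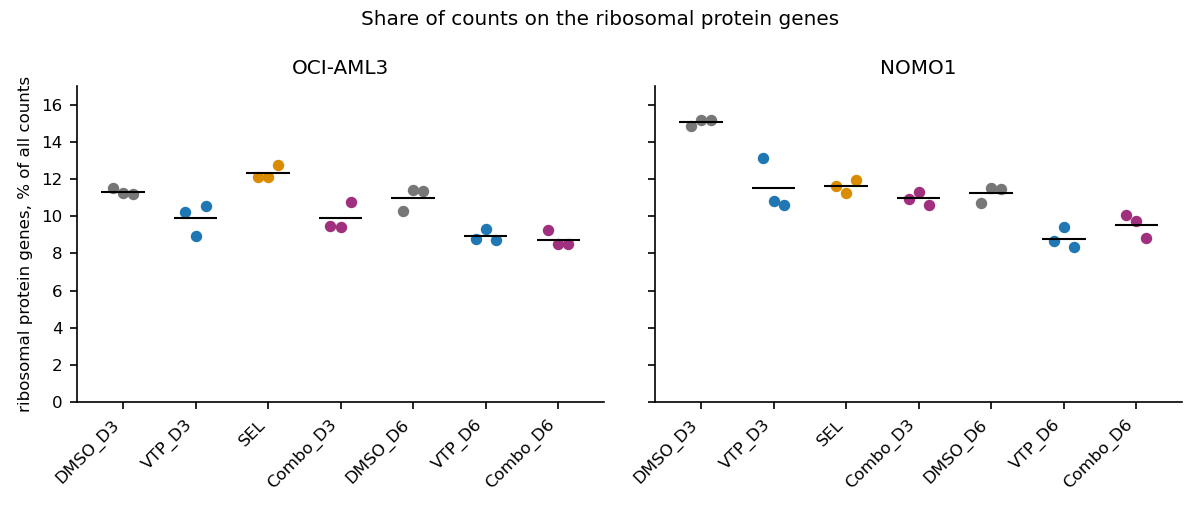
Share of all counts held by the 82 members (percent, vertical) in every library of the 7 groups of each line; points are libraries and bars are group means. OCI-AML3 VTP and Combo libraries lie below their DMSO groups, and NOMO1 DMSO_D3, at 15.1 ± 0.188%, lies above all other groups.

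In OCI-AML3 the menin inhibitor lowered ribosomal protein mRNAs broadly but by modest amounts, and more members passed the test on day 6. On day 3, 26 of 80 members were lower and none was higher (edgeR adjusted p under 0.05), against 4.42% of all genes lower and 6.49% higher; the median member changed by -0.24 (log2), and the median of all genes by 0.01. This count rests on replicate 2 of VTP_D3, the library that stood apart: without it 3 members were lower and the median was -0.17. The count also fell to between 9 and 15 when 1 DMSO_D3 library was left out, and rose to 40 without VTP_D3 replicate 3. On day 6, 52 of 80 were lower and 1 was higher, against 16% and 18.8% of all genes, with a median of -0.33. Members of both subunits were among them, with 31 of 48 large-subunit members lower (median -0.34) and 21 of 32 small-subunit members (median -0.31).

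Leaving out the low-count RPL36A, RPL5 (chr1:92831983-92841924, GRCh38) had the largest fall on day 6. It was at 2159, 2262 and 2172 CPM in DMSO_D6 and 1162, 1278 and 1149 CPM in VTP_D6, so that every VTP library was below every control. The log2 fold change was -0.88 ± 0.09 (SE), edgeR adjusted p = 5.62e-09. Its 5S partner RPL11 was at 653, 718 and 729.6 CPM in DMSO_D6 and 607, 658 and 621 in VTP_D6, a log2 difference of -0.16 that did not pass (adjusted p = 0.13); it passed with no filter (adjusted p = 0.037) and with only the compared groups (adjusted p = 0.00619). RPL4, which lines the exit tunnel of the large subunit, and RPL9 fell (log2 -0.65 and -0.68), as did RPL35A, mutated in some Diamond-Blackfan families (log2 -0.56). RPS6 went from 3051, 3374 and 3340.0 CPM to 2208, 2374 and 2144 CPM, again without overlap (log2 -0.54 ± 0.09 (SE), adjusted p = 9.17e-06). RPL36A, with few counts, was also called lower (-0.91, adjusted p = 0.025), a call that ended when any of 4 of the 6 libraries was left out (adjusted p up to 0.12).

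The member that rose on day 6 was RPS26 (chr12:56041351-56044697, GRCh38), a small-subunit protein at the mRNA exit channel that is mutated in Diamond-Blackfan anaemia. It was at 125, 135 and 144 CPM in DMSO_D6 and 179, 183 and 181 CPM in VTP_D6. All 3 treated libraries were above all 3 controls, with a log2 fold change of 0.43 ± 0.09 (SE) and an edgeR adjusted p of 0.000509. On day 3 it was at 138, 147 and 134 CPM in DMSO and 127, 144 and 131 CPM in VTP, which did not pass the test (log2 -0.06, adjusted p = 0.823).

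**Figure D3:**
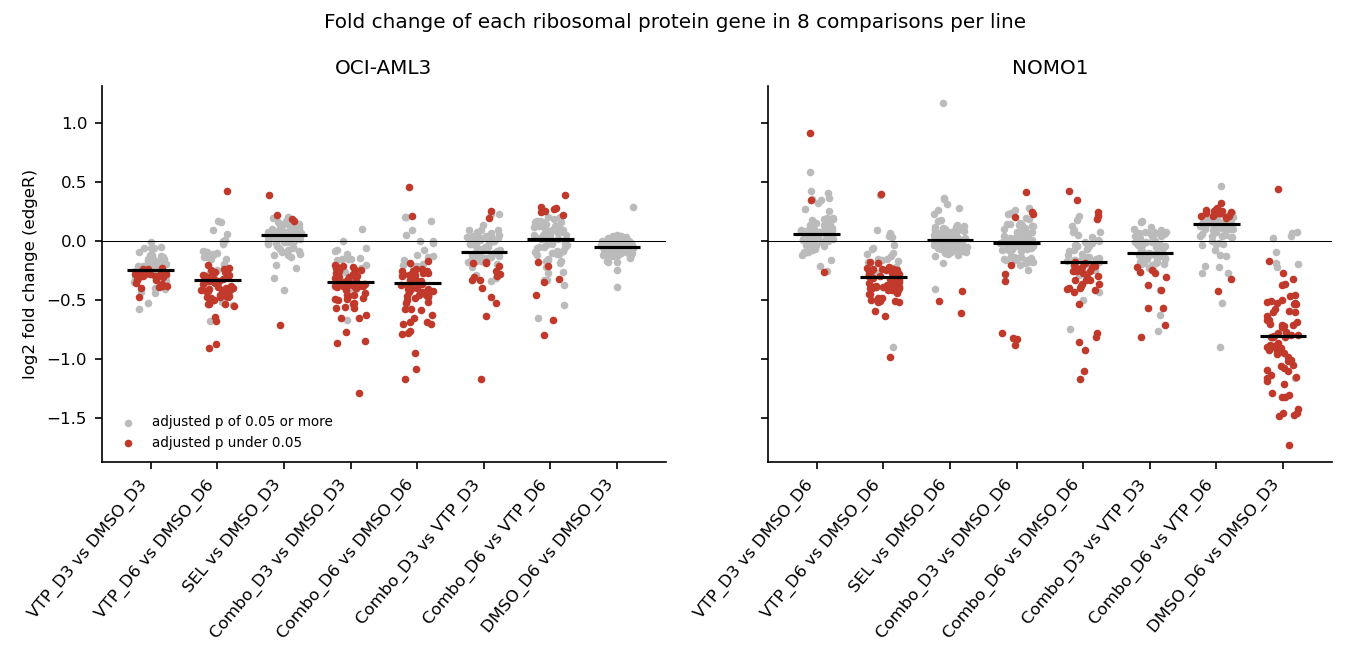
Log2 fold change of each tested member (points; vertical axis) in the 8 comparisons named on the horizontal axis, for OCI-AML3 (left) and NOMO1 (right); bars are medians, and red points passed the edgeR test. The OCI-AML3 medians lie at -0.24, -0.33, 0.05, -0.35 and -0.36 for VTP_D3, VTP_D6, SEL, Combo_D3 and Combo_D6 against DMSO, and the NOMO1 median for VTP_D6 lies at -0.30.

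Few members of OCI-AML3 passed the test with selumetinib alone. Higher calls numbered 4 of 80 and lower calls 1, against 11.7% and 15.6% of all genes, with a median of 0.05; scaling by library totals gave 11 higher and 1 lower. RPS27L rose from 61.6, 58.1 and 55.9 CPM in DMSO_D3 to 76.2, 72.8 and 80.7 CPM (log2 0.39 ± 0.10 (SE), edgeR adjusted p = 0.00452), and the groups did not overlap. RPLP0, the base of the stalk that recruits translation factors, RPL7A and RPL27A rose (log2 0.19, 0.17 and 0.22), but these calls ended when any of 6, 5 and 4 of the 6 libraries was left out (adjusted p up to 0.173, 0.186 and 0.11). RPL39L, at 10.5, 15.8 and 12.8 CPM in DMSO_D3 and 9.29, 7.28 and 7.34 CPM with selumetinib, was the member that fell (-0.71 ± 0.21 (SE), adjusted p = 0.0114); its call ended without DMSO_D3 replicate 2, SEL replicate 2 or SEL replicate 3 (adjusted p up to 0.108). The time of the selumetinib group is not settled and DMSO_D3 is only its nearest control.

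With both drugs, the OCI-AML3 members were again lower than in DMSO. On day 3, 60 of 80 were lower and none higher, against 25.8% and 22.3% of all genes, with a median of -0.35; library totals lowered the count to 39 and moved the median of all genes by 0.13. On day 6, 58 were lower and 2 higher, against 26.5% and 23.1%, with a median of -0.36. RPSA (chr3:39406689-39412542), a small-subunit protein also known as the laminin receptor, was at 1483, 1465 and 1466 CPM in DMSO_D3 and 928, 980.1 and 1061 in Combo_D3. On day 6 it was at 1428, 1543 and 1602 CPM in DMSO and 1002, 907 and 938 in Combo. Neither day showed an overlap, and the log2 fold changes were -0.57 ± 0.06 (SE) (adjusted p = 9.62e-09) and -0.68 ± 0.06 (SE) (adjusted p = 3.5e-10). RPL5 fell on both days (log2 -0.50 and -0.79). RPS29, another zinc-finger protein of the small subunit, had 269.9, 442 and 422 CPM in DMSO_D6 and 258, 157 and 120.3 in Combo_D6 (log2 -1.08, adjusted p = 0.00408). The members higher on day 6 were RPS27L, at 58.4, 59.5 and 62.8 CPM in DMSO and 94.6, 82.0 and 72.0 in Combo (log2 0.46 ± 0.10 (SE), adjusted p = 0.000441), and RPS15, of the small-subunit head (log2 0.21). The call of RPS15 ended when any of 4 of the 6 libraries was left out (adjusted p up to 0.245).

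Set against the menin inhibitor alone on the same day, the combination gave calls in both directions in OCI-AML3. On day 3, 2 were higher and 15 lower of 80 (all genes: 18.2% and 24%; median member -0.09), and on day 6, 7 and 7 (all genes: 16.7% and 24.6%; median 0.01). The split turned with the scaling: relative log expression size factors gave 3 higher and 10 lower on day 3 and 16 and 5 on day 6, and library totals gave 4 and 9, then 6 and 13. The day 3 count also depended on libraries: 27 members were lower without Combo_D3 replicate 3 and 35 without VTP_D3 replicate 2. RPS26 was lower with the second drug on both days. On day 6 the VTP libraries were at 179, 183 and 181 CPM and the Combo libraries at 108, 134 and 99.9, without overlap (log2 -0.67 ± 0.09 (SE), adjusted p = 1.12e-06), and on day 3 the log2 difference was -0.48. RPSA was also lower on both days (log2 -0.39 and -0.46), as was RPL17, at low counts (log2 -1.17 and -0.80). RPS20, of the small-subunit head, was higher on both days (log2 0.25 and 0.38), though its day 3 call ended without VTP_D3 replicate 2 or Combo_D3 replicate 3 (adjusted p up to 0.126).

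The OCI-AML3 controls of the 2 days gave no call. Between DMSO_D3 and DMSO_D6 edgeR called none of 80 members, and none had an unadjusted p under 0.05; over all genes 0% were called higher and 0% lower, 174 genes had an unadjusted p under 0.05, and DESeq2 called 0 genes as well. The median member differed by -0.05.

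In NOMO1 the menin inhibitor lowered most members on day 6, whereas few passed the test on day 3. On day 3, 2 of 81 were higher and 1 lower, against 12.7% and 14.4% of all genes, with a median of 0.06. The median difference by library was 0.27 in replicate 1, the library that stood apart, and -0.04 and -0.05 in the other 2; without replicate 1, 1 member was higher and 9 were lower, with a median of -0.07. On day 6, 59 of 81 were lower and 1 higher, against 25.1% and 23.7%, with a median of -0.30. Large-subunit members (median -0.30, 37 lower) and small-subunit members (median -0.31, 22 lower) gave similar values, with no test between them.

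RPL22, an RNA-binding protein of the large subunit whose gene is lost in some leukaemias, was at 157, 193 and 146 CPM in NOMO1 DMSO_D6 and 118, 121 and 106 in VTP_D6. No VTP library reached a control, and the log2 fold change was -0.52 ± 0.11 (SE) (edgeR adjusted p = 0.000323). RPL5 went from 1875, 2263 and 2028 CPM to 1447, 1587 and 1351 CPM, also without overlap (log2 -0.49 ± 0.09 (SE), adjusted p = 2.19e-05), and RPL11 fell as well (log2 -0.30). RPL39L, RPL26 and RPS21 fell (log2 -0.60, -0.64 and -0.51), as did RPL17, at low counts (log2 -0.98). The call of RPL26 ended when any of 4 of the 6 libraries was left out (adjusted p up to 0.148), with relative log expression size factors (0.0594) and with no filter (0.0907). The 1 member that rose was RPS27L, from 22.7, 24.8 and 22.5 CPM to 28.6, 33.4 and 29.9 CPM (log2 0.39 ± 0.11 (SE), adjusted p = 0.0033), and its libraries did not overlap either; against DMSO_D3 the same libraries gave -0.66. RPS26 was at 106, 106 and 113 CPM in DMSO_D6 and 76.1, 84.2 and 88.3 in VTP_D6 (log2 -0.39 ± 0.11 (SE), adjusted p = 0.00377).

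Selumetinib in NOMO1 changed 3 members, all lower: RPL17 (-0.61), RPL39L (-0.51) and RPS26 (-0.43); with library totals 1 member was called higher as well. The RPL17 call ended without SEL replicate 2, SEL replicate 3 or DMSO_D6 replicate 2 (adjusted p up to 0.111). Over all genes 19% were lower and 13.1% higher, and the median member was at 0.00. With both drugs for 3 days, 4 members were higher and 7 lower (all genes 20.9% and 24.4%; median member -0.02), and library totals gave 2 and 14. RPS26 was among those lower, at 61.7, 60.7 and 60.2 CPM against 106, 106 and 113 in DMSO_D6 (log2 -0.83 ± 0.11 (SE), edgeR adjusted p = 5.42e-07).

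After 6 days of both drugs, NOMO1 members rose and fell. Of 81, 31 were lower and 5 higher, against 28.2% and 27.3% of all genes, with a median of -0.18; library totals, which moved the median of all genes by -0.11, gave 58 lower and 1 higher, and without Combo_D6 replicate 3 the counts were 17 lower and 6 higher. RPS19, the gene most often mutated in Diamond-Blackfan anaemia, was at 1322, 1399 and 1396 CPM in DMSO_D6 and 1802, 1782 and 1644 in Combo_D6, without overlap (log2 0.34 ± 0.08 (SE), adjusted p = 0.000371). RPL10, which joins the large subunit late and is mutated in T-cell leukaemia, rose as well (log2 0.24), with RPS27 (log2 0.43), RPL15 (log2 0.19) and RPLP1, a stalk protein (log2 0.21). With library totals none of these 4 kept its call, and the calls of RPS27, RPL15 and RPLP1 ended when any of 5, 4 and 5 of the 6 libraries was left out (adjusted p up to 0.117, 0.204 and 0.257), that of RPL10 without Combo_D6 replicate 1 (adjusted p = 0.0556). Against DMSO_D3, RPS19, RPL15 and RPLP1 were lower instead (log2 -0.94, -0.32 and -1.09). RPL39L fell from 46.8, 46.4 and 45.1 CPM to 26.5, 27.0 and 19.3 (log2 -0.92 ± 0.11 (SE), adjusted p = 4.37e-08) and RPS26 from 106, 106 and 113 CPM to 60.4, 61.0 and 63.6 (log2 -0.81 ± 0.11 (SE), adjusted p = 4.07e-07). RPL26 fell (log2 -0.86), as did RPL17, at low counts (log2 -1.11).

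Compared with VTP alone on day 3, NOMO1 Combo had 0 members higher and 11 lower (all genes 15.9% and 19.2%; median -0.10); without VTP_D3 replicate 1 this became 11 higher and 6 lower. On day 6, 18 were higher and 2 lower (all genes 12.4% and 15.2%; median 0.14). That count rests on single libraries: it was 1 higher and 2 lower without VTP_D6 replicate 3, 8 and 3 without VTP_D6 replicate 1, 3 and 2 without Combo_D6 replicate 1, and 9 and 2 without Combo_D6 replicate 2. RPS26 and RPL39L were the 2 members lower on day 6 (log2 -0.43 and -0.33), and both were also lower on day 3 (log2 -0.71 and -0.56). The day 6 call of RPL39L ended without VTP_D6 replicate 2 or Combo_D6 replicate 3 (adjusted p up to 0.265). RPS26 was lower with the combination than with the menin inhibitor alone in both lines and on both days.

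The NOMO1 controls of the 2 days differed in most members. In DMSO_D6, 71 of 81 members were lower than in DMSO_D3 and 1 was higher, against 22.3% and 28.8% of all genes, with a median of -0.80. Library totals moved the median of all genes by 0.34 and gave 59 lower and 5 higher. The other early NOMO1 groups were near DMSO_D6, with median members at 0.06 in VTP_D3, 0.00 in SEL and -0.02 in Combo_D3 relative to it. RPLP2, for 1, had means of 1070, 1002 and 1063 CPM in these groups. Whether the DMSO difference follows time was not tested. RPLP2, a stalk protein, went from 2242, 2792 and 2695 CPM to 925, 906 and 975 CPM (log2 -1.46 ± 0.10 (SE), edgeR adjusted p = 4.26e-12). RPS24, another Diamond-Blackfan gene, and RPL38 fell (log2 -1.48 and -1.48). RPSA went the other way, from 1355, 1316 and 1329 CPM to 1701, 1904 and 1829.8 CPM (log2 0.44 ± 0.08 (SE), adjusted p = 1.74e-05), and its libraries did not overlap. Mitochondrially encoded RNA was 17.8% of counts in NOMO1 DMSO_D3; its part in these differences was not tested, and the members' share of the remaining counts was 18.3%, and DMSO_D6 differed from it by -6.75 percentage points. The choice of control sets much of each NOMO1 drug comparison: against DMSO_D3, the members lower were 69 with VTP_D3, 77 with VTP_D6, 71 with SEL, 71 with Combo_D3 and 75 with Combo_D6. The shares of all genes lower were 22.7%, 29.8%, 25.2%, 27.5% and 32.4% in that order.

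The lines were compared by the difference of their effects on day 6, NOMO1 minus OCI-AML3, each against its own DMSO_D6. For VTP, the edgeR test called the difference above 0 for 11 of 81 members and below 0 for 4, against 16.6% and 16.8% of all genes, with a median of 0.12; with library totals, which moved the median of all genes by -0.16, the split of calls turned to 5 and 12 and the median to -0.04. For the combination the counts of calls were 21 and 3 (all genes 18.6% and 16.3%; median 0.20), and 11 and 8 with library totals. RPS26 rose with VTP in OCI-AML3 (0.43) and fell in NOMO1 (-0.39), a difference of -0.75 ± 0.15 (SE) (edgeR adjusted p = 6.32e-05). RPL5 fell in both lines and less in NOMO1, with a difference of 0.45 ± 0.13 (SE) for VTP (adjusted p = 0.00477) and 0.48 for the combination. The differences were 0.40 and 0.48 for RPS19, and 0.46 and 0.70 for RPL10. With the day 3 controls in both lines the differences were -0.13 and -0.10 for RPL5 and -0.80 and -0.71 for RPS19, opposite in sign, and with library totals the VTP difference of RPS19 no longer passed. RPSA fell with the combination in OCI-AML3 and did not pass the test in NOMO1 (-0.15, adjusted p = 0.0891), and the difference was 0.59 ± 0.10 (SE) (adjusted p = 3.65e-06). The NOMO1 change did pass with library totals (-0.26, adjusted p = 0.00231), with no filter (adjusted p = 0.031), with only the compared groups (adjusted p = 0.0311) and without DMSO_D6 replicate 1 or Combo_D6 replicate 1 (adjusted p = 0.0388 and 0.0205). Among the 21 members called above 0 for the combination was RPL3L, the muscle form, which had no count in the 3 OCI-AML3 Combo_D6 libraries, so no fold is given for it.

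**Figure D4:**
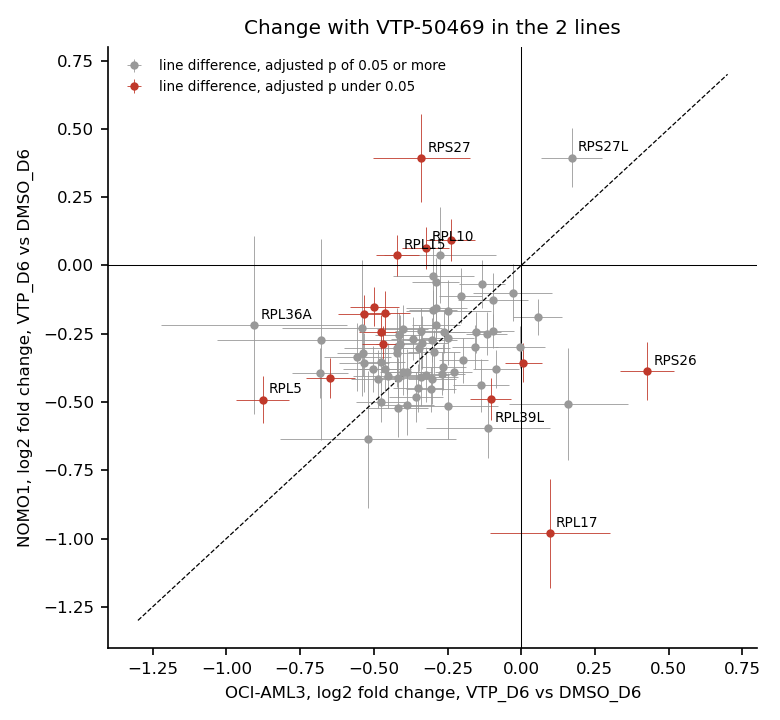
Log2 fold change of each member tested in both lines, VTP_D6 against DMSO_D6, in OCI-AML3 (horizontal) and NOMO1 (vertical); error bars are 1 SE to each side, the broken line is equality, and red points are members whose line difference passed the edgeR test. RPS26 lies at 0.43 and -0.39, and RPL5 at -0.88 and -0.49.

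By role, the stalk proteins RPLP0, RPLP1 and RPLP2 dock the elongation factors. Of these, RPLP2 was called lower in OCI-AML3 VTP_D6 (log2 -0.34), and RPLP0 stood at -0.12 and RPLP1 at -0.13 without passing, though both passed with only the compared groups (adjusted p = 0.0213 and 0.0434). In NOMO1 VTP_D6 RPLP0 and RPLP2 fell (log2 -0.25 and -0.28). RPL3, at the peptidyl transferase centre, fell in VTP_D6 of both lines (log2 -0.42 in OCI-AML3 and -0.41 in NOMO1). RPS27A, made as a fusion with ubiquitin, fell likewise (log2 -0.40 and -0.39), as did RPS14, the 5q- syndrome gene (log2 -0.40 and -0.23), and RPS4X (log2 -0.29 and -0.22). In NOMO1 these calls ended for RPS14 when any of 4 of the 6 libraries was left out (adjusted p up to 0.128), with relative log expression size factors (0.0636) and with DESeq2 (0.0692), for RPLP2 without DMSO_D6 or VTP_D6 replicate 3 (adjusted p up to 0.0828), and for RPS4X without VTP_D6 replicate 3 (adjusted p = 0.0522). Of the 19 members listed as mutated in Diamond-Blackfan anaemia, 10 were lower and 1 higher in OCI-AML3 VTP_D6, and 10 lower and 0 higher in NOMO1 VTP_D6; of all genes 16% were lower and 18.8% higher in the first and 25.1% and 23.7% in the second, and of all members 52 of 80 and 59 of 81 were lower. Of the 6 listed as lost or mutated in cancers (RPL5, RPL10, RPL11, RPL22, RPS14 and RPS15), 4 and 5 were lower, beside the same shares of 16% and 25.1% of all genes. Of the paralogs, RPS27L rose in NOMO1 VTP_D6 while RPS27 was at 0.39 (adjusted p = 0.0524). RPS27 passed with relative log expression size factors (adjusted p = 0.0392), a filter of 1 CPM (0.0393), only the compared groups (4.81e-06) and DESeq2 (0.0369). RPL36AL stood at -0.09 in OCI-AML3 and fell in NOMO1 (log2 -0.38).

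Across the 14 groups, the members whose level departed most from the median member were RPL39L, RPS27L, RPS27, RPL26 and RPL38. As the standard deviation over the 14 group means of log2 CPM minus the median member, they spread by 0.89, 0.81, 0.76, 0.66 and 0.65. RPL39L was highest relative to the median member in NOMO1 DMSO_D6 and lowest in OCI-AML3 SEL. RPS27L was highest in OCI-AML3 Combo_D6 and lowest in NOMO1 Combo_D3, and RPS27 highest in OCI-AML3 Combo_D3 and lowest in NOMO1 DMSO_D3. This is a description of the group means, with no test.

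**Figure D5:**
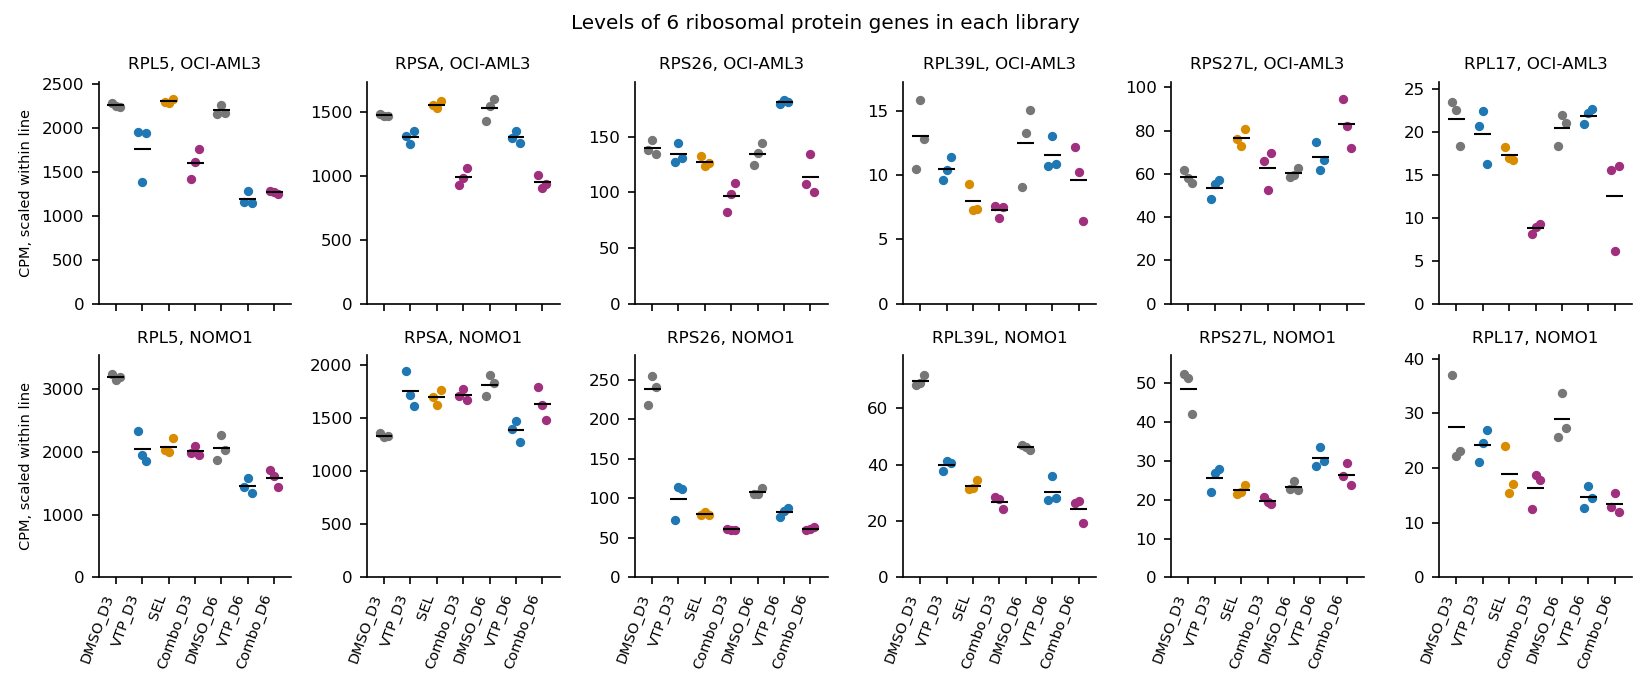
CPM of 6 members in every library, scaled within each line; points are libraries and bars group means, with OCI-AML3 and NOMO1 in separate panels. Among the OCI-AML3 groups RPS26 is highest in VTP_D6, and it is at 60.4, 61.0 and 63.6 CPM in the NOMO1 Combo_D6 libraries.

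Members with a TOP start and members without one were set side by side, with no test between them. The split depends on the exact start listed. RPL3, with a run of 4 bases, counts as without a tract. So do RPL19 and RPL36AL, which have a listed start inside a run of pyrimidines. Similar medians therefore say little about the tract itself. In OCI-AML3 VTP_D6 the median was -0.34 over 46 tested members with a tract and -0.36 over 18 without, and 32 and 10 were lower. In NOMO1 VTP_D6 the medians were -0.30 and -0.32, with 31 and 14 lower. Of all genes, 16% were lower in OCI-AML3 VTP_D6 and 25.1% in NOMO1 VTP_D6. In OCI-AML3 Combo_D6 the medians were -0.36 and -0.41. Wider gaps were seen elsewhere. In OCI-AML3 VTP_D3, 20 of 46 with a tract and 2 of 18 without were lower (medians -0.27 and -0.20), against 4.42% of all genes. Those calls rest on VTP_D3 replicate 2, the library that stood apart, without which 3 members in all were lower. From NOMO1 DMSO_D3 to DMSO_D6 the medians were -0.89 and -0.76, and for the line difference of the combination 0.18 and 0.30. A match to the tract is a description of the annotated start and says nothing of translation, which was not measured.

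Other genes of the pathway were counted from lists of translation factors, regulators and chaperones. Of 21 tested translation factors and other TOP mRNAs, 18 were lower and 0 higher in OCI-AML3 VTP_D6, with a median of -0.58 (median member -0.33), against 16% and 18.8% of all genes. EEF2, the factor that moves the ribosome along the mRNA, fell (log2 -0.78 ± 0.08 SE, edgeR adjusted p = 2.94e-09), as did RACK1, a scaffold on the small subunit (log2 -0.67), and EEF1A1 (log2 -0.41). In NOMO1 VTP_D6, 9 were lower and 2 higher (median -0.16), against 25.1% and 23.7% of all genes, and EEF2 was at -0.22 (adjusted p = 0.206). EEF2 had 4525 ± 39.4 CPM (SD, n = 3) in NOMO1 DMSO_D6, 3876 ± 102 in VTP_D6 and 3098 ± 156 in DMSO_D3. The test uses 1 spread per gene over all 7 groups of the line, and the SD of EEF2 was 1526 CPM in VTP_D3. The edgeR test called the difference between the lines above 0 for 16 of the 21 and below 0 for none, both with VTP and with the combination (all genes 16.6% and 16.8%, then 18.6% and 16.3%). The counts for this list use the DMSO_D6 controls and TMM scaling, and the list was not counted with other settings. In NOMO1 DMSO_D3, DMSO_D6 and VTP_D6, TPT1 was at 4467, 1989 and 3079 CPM, and PABPC1 at 2772, 3701 and 3626. Library totals moved the median of all genes by -0.16 in both line differences. MYC, which activates transcription of these genes, fell in VTP_D6 and Combo_D6 of both lines (log2 -0.79 and -1.26 in OCI-AML3, -1.19 and -2.67 in NOMO1). In the other drug groups its means were also below the control used here for each line. In OCI-AML3 they were 675 CPM in DMSO_D3, 542 in VTP_D3, 418 in SEL and 157 in Combo_D3. The median members there were at -0.24, 0.05 and -0.35. In NOMO1 they were 368 CPM in DMSO_D6, 316 in VTP_D3, 259 in SEL and 177 in Combo_D3. The median members there were at 0.06, 0.00 and -0.02. NOMO1 DMSO_D3 had 291 CPM of MYC, so against that control VTP_D3 was higher, and SEL and Combo_D3 were lower. A link of MYC to the members was not tested.

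Among 7 chaperones that escort single ribosomal proteins, 6 were lower and 0 higher in NOMO1 Combo_D6 (median -1.66) and 5 and 0 in OCI-AML3 Combo_D6 (median -0.63), where 28.2% and 26.5% of all genes were lower. In VTP_D6, 6 were lower and 0 higher in NOMO1, whereas in OCI-AML3 3 were lower and 2 higher, BCCIP (log2 0.31, adjusted p = 0.0123) and TSR2, which escorts RPS26 (log2 0.56, adjusted p = 9.25e-05). Of all genes in VTP_D6, 25.1% were lower and 23.7% higher in NOMO1, and 16% and 18.8% in OCI-AML3. GRWD1, the chaperone of RPL3, fell in Combo_D6 of both lines (log2 -1.84 in NOMO1 and -0.63 in OCI-AML3), and BCCIP, which escorts RPL23, fell there in NOMO1 (log2 -1.66) and stood at -0.14 in OCI-AML3 (adjusted p = 0.248). The median member of NOMO1 Combo_D6 was at -0.18. Of the 3 paralogs outside the rule (RPL7L1, RPL22L1 and RPL26L1), 2 were lower in OCI-AML3 Combo_D6 and 3 in NOMO1 Combo_D6. In VTP_D6, RPL26L1 was higher in OCI-AML3 (log2 0.71, edgeR adjusted p = 0.00058) and lower in NOMO1 (log2 -0.46, adjusted p = 0.0106). RPL7L1 was lower there in both lines (log2 -0.19 and -0.46), and RPL22L1 passed in neither. Of 18 regulators of TOP mRNA translation, 10 were lower and 3 higher in OCI-AML3 Combo_D6 and 10 and 4 in NOMO1, against 26.5% and 23.1%, then 28.2% and 27.3%, of all genes. Of 8 p53 targets, 6 were higher and 0 lower in OCI-AML3 Combo_D6 and 4 and 0 in NOMO1 Combo_D6, where 23.1% and 27.3% of all genes were higher. MDM2, which degrades p53, rose in both (log2 1.29 and 0.49). Other comparisons of the same list were mixed. In OCI-AML3 VTP_D6, 4 were higher and 2 lower, BBC3 (log2 -0.41) and ZMAT3 (log2 -0.73). In NOMO1 VTP_D6, 6 were higher and SESN1 was lower (log2 -0.45), and with selumetinib 5 were higher and 0 lower in OCI-AML3, whereas in NOMO1 1 was higher and CDKN1A was lower (log2 -1.01). Of all genes, 18.8% were higher and 16% lower in OCI-AML3 VTP_D6, and 23.7% and 25.1% in NOMO1 VTP_D6. With selumetinib the shares were 11.7% and 15.6% in OCI-AML3, and 13.1% and 19% in NOMO1. The NOMO1 counts for this list use DMSO_D6 as control. BAX was at 103, 51.5 and 61.2 CPM in NOMO1 DMSO_D3, DMSO_D6 and VTP_D6, and BBC3 at 25.1, 15.9 and 20.9. Against DMSO_D3 the VTP_D6 means of BAX and BBC3 were therefore lower instead. CDKN1A, MDM2, TP53INP1 and ZMAT3 had higher means in VTP_D6 than in either control, and SESN1 had a lower one.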

How the data were processed

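The deposited table held raw counts per gene, which the authors made with STAR 2.11a and featureCounts (Subread 2.0.6) on hg38 after FastQC 0.11.9 and MultiQC 1.14, per the submitters' processing notes; they also name DESeq2 1.44.0. The header names GENCODE 30. Libraries were unstranded and paired-end, from polyadenylated RNA, per the labels' protocols. Of 58870 rows, 58869 had a count in every cell and were used; 3 columns equal to the selumetinib columns were not used.

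The counts were tested with edgeR 4.0.16 in R 4.3.3 (filterByExpr, TMM scaling, robust quasi-likelihood test, Benjamini-Hochberg over all genes tested, called at an adjusted p under 0.05). Each line was fitted over its 21 libraries and 7 groups, and line differences over all 42. Genes tested numbered 16384 in OCI-AML3, 16561 in NOMO1 and 18707 over both. CPM are counts relative to the library total, scaled by TMM within the fit. The fitting script was tested on simulated data. Shares were compared by exact permutation tests.

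The members, pathway lists and tests were chosen with earlier results of these data known. Members named were a fixed group of 22 followed genes and, per comparison, the 5 called members with the largest rise and the 5 with the largest fall whose libraries do not overlap and whose mean reaches 5 CPM in 1 group. RPS26 in comparisons outside that rule was named after its values were seen. The results of 1 member, which stays in the counts, are not reported here by name. Positions are from GENCODE 29 (GRCh38) and transcript starts from RefSeq. Alternatives covered scaling, filters, the control day, mitochondrial and pseudogene counts, the replicate block, only the compared groups, DESeq2 1.42.0 and each library left out.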

Additional observations from a re-analysis of the deposited data

Results flagged for a closer look

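The effects of the same treatment differed between the lines for 22 of the member results that the naming rule selects, by the edgeR test of the difference NOMO1 minus OCI-AML3 on day 6, adjusted over all genes. That rule selects by the same test, so 22 does not measure how often the lines differ. Of all 81 members, 11 were called above 0 and 4 below for VTP, against 16.6% and 16.8% of all genes. For the combination 21 and 3 were called, against 18.6% and 16.3%. The differences listed here are values only, and they depend on the controls and on the scaling: with library totals or with the day 3 controls the counts in each direction change. For VTP against DMSO, the log2 differences above 0 were RPS27 0.80, RPL15 0.52, RPL10 0.46, RPL5 0.45, RPL23 0.42 and RPS19 0.40. Those below 0 were RPL17 -1.01, RPS26 -0.75, RPS2 -0.32 and RPL7A -0.30. For the combination against DMSO, those above 0 were RPS27 0.75, RPL10 0.70, RPSA 0.59, RPL35A 0.55, RPL15 0.54, RPS14 0.51, RPL5 0.48, RPS19 0.48, RPL3 0.35 and RPLP0 0.28. Those below 0 were RPS26 -0.51 and RPL36AL -0.29.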

How the results depend on the processing

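Counts of members called moved by more than 1.5 times under these settings. With DMSO of the other day as control, OCI-AML3 VTP_D3 had 17, NOMO1 VTP_D3 70, SEL 72, Combo_D3 72 and Combo_D6 77, and the line differences 65 (VTP) and 56 (combination). With library totals, OCI-AML3 SEL had 12 and Combo_D3 39, and NOMO1 Combo_D6 59 and Combo_D6 against VTP_D6 13. With no filter, OCI-AML3 VTP_D3 had 48 and SEL 8, and NOMO1 VTP_D3 6. With only the compared groups, OCI-AML3 SEL had 19, Combo_D3 against VTP_D3 7 and Combo_D6 against VTP_D6 34; NOMO1 SEL had 14, Combo_D3 34, Combo_D6 55, Combo_D3 against VTP_D3 5 and Combo_D6 against VTP_D6 34; and the VTP line difference had 23. With DESeq2, OCI-AML3 VTP_D3 had 40, SEL 9 and Combo_D6 against VTP_D6 23, and NOMO1 VTP_D3 5. The cause was not tested.

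With 1 library left out, the counts ranged in OCI-AML3 from 3 to 40 (VTP_D3), 46 to 58 (VTP_D6), 1 to 6 (SEL), 47 to 70 (Combo_D3), 50 to 65 (Combo_D6), 9 to 35 and 10 to 18 (Combo against VTP, day 3 and day 6) and 0 to 0 (DMSO). In NOMO1 they ranged from 1 to 10, 49 to 64, 2 to 4, 8 to 12, 23 to 41, 6 to 17, 3 to 26 and 67 to 71 in the same order, and over both lines from 11 to 17 (VTP difference), 17 to 29 (combination difference) and 55 to 58 (DMSO_D6 level).

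Named members reversed only with DMSO of the other day: RPS27L -0.66 in NOMO1 VTP_D6; RPL15 -0.32, RPLP1 -1.09, RPS19 -0.94 and RPSA 0.29 in NOMO1 Combo_D6; RPL5 -0.13 and RPS19 -0.80 in the VTP line difference, -0.10 and -0.71 in that of the combination; RPS27L 0.10 and RPS6 0.32 in the control levels. Calls of named members also ended with DMSO of the other day for RPL36A in OCI-AML3 VTP_D6 (adjusted p = 0.134), RPL27A and RPL7A in SEL (0.0502 and 0.0944), RPS15 in Combo_D6 (0.058) and RPS27 in NOMO1 Combo_D6 (0.0768); with no filter for RPL7A in OCI-AML3 SEL (0.0527) and RPL15 and RPS27 in NOMO1 Combo_D6 (0.0554 and 0.103); and with only the compared groups for RPS20 in OCI-AML3 Combo_D3 against VTP_D3 (0.0899) and RPL39L in NOMO1 Combo_D6 against VTP_D6 (0.054), all by edgeR. The replicate number as a block moved no count by more than 1.5 times (NOMO1 VTP_D6 60 against 60, OCI-AML3 VTP_D6 53 against 53) and ended 1 named call, RPLP0 in OCI-AML3 SEL; same-numbered libraries correlated at -0.089 to 0.041 in OCI-AML3 and -0.076 to 0.049 in NOMO1, so the numbers do not pair them. In 2 of 8 OCI-AML3 comparisons and 1 of 8 in NOMO1 every sample correlated best with its own number. Depth limits RPL3L, RPL10L, RPS10 and RPL36A most.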
